A study of Bos taurus with 4 samples.

Results

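Genes of the cell cycle and of DNA replication were followed in subcutaneous fat of Qinchuan cattle, a Chinese breed. Members were chosen by name, as the described UniGene clusters (groups of transcript sequences with a representative) whose description holds any of 9 phrases, among them cyclin, cell division cycle, minichromosome maintenance, centromere protein, kinesin family member and replication factor C. The rule gave 162 members of 36373 clusters, of which 13230 carry a description. Of the members, 54 were named through a RefSeq accession, 20 from a symbol in the description and 88 from the description itself. Each of the 4 libraries came from a group of its own, namely fetuses (ATFB, 200 to 250 days by the labels), bulls (ATAB), heifers (ATAH) and steers (ATAS), the last being males that had been castrated. The adults were 18 to 24 months old by the labels and the labels name no other treatment. Each library held pooled tissue of 5 animals, so there was 1 library per group, the spread between animals cannot be read, and differences between libraries had no replicate to check them. The labels give no sex for the fetuses, and XIST, which silences an X chromosome in female cells, was at 36.3 RPKM (reads per kilobase of the cluster and per M, for mega, counted reads) in ATFB, 28.1 in ATAH, 0.193 in ATAB and 0.276 in ATAS.

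A cell that divides first licenses its replication origins by loading the MCM helicase, copies its DNA with replicative polymerases held on the DNA by the clamp PCNA, and then separates the copies on a spindle driven by mitotic kinesins. Cyclins switch on the cyclin-dependent kinases (CDKs) that order these steps, CDK inhibitors hold them back, and the ubiquitin ligase APC/C with its activator CDC20 ends mitosis. In fat, new adipocytes arise from dividing preadipocytes, while mature adipocytes no longer divide. The phrases also reach beyond proliferation. By role lists, 80 members were placed under the driving of the cycle, DNA replication or division, or under the proliferation marker MKI67, and are called proliferation roles here. NIFK, which binds MKI67, was listed with it and is not itself such a marker. The other 82 include the 6 CDK inhibitors, which hold the cycle back, FZR1, which activates the APC/C, 25 cyclins and CDKs of transcription, splicing and other roles, 13 transport and other kinesins and 9 repair, translesion or mitochondrial polymerases. In 6 members the letters of cyclin lie inside another word (HMOX1, HMOX2, PTGIS, PTGIR, CACYBP and MRRF), so the label holds for the list only in part.

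The libraries held 15.3 to 16.1 M counted reads, of which the members took 0.572% to 0.671%. Of the members, 155 had at least 10 reads in 1 library or more, 153 had a read in all 4 libraries, and 7 stayed under 10 reads everywhere. The tissue differed in more than its age. The summed level of 8 adipocyte markers was 1003 RPKM in ATFB and 6851 to 7649 RPKM in the adult libraries, with none of them at 0 reads in any library. The summed level of 9 red cell markers was 2442 RPKM in ATFB and 90.2 to 129 RPKM in adults, where 1, 1 and 4 of them had 0 reads in ATAB, ATAH and ATAS. These sums rest on few genes, since the fetal globin gene HBG2 gave 2365 RPKM of the sum in ATFB and GYPC gave 122 RPKM of that in ATAB. GYPC (48.03 RPKM in ATFB, and 122, 117 and 84.03 RPKM in ATAB, ATAH and ATAS) and TFRC (1.79, and 5.91, 7.95 and 5.72 RPKM) were higher in each adult library. Of 8 fibroblast and preadipocyte markers, 6 were highest in ATFB, and their sum was 11464 RPKM in ATFB against 8021, 2580 and 3378 RPKM in ATAB, ATAH and ATAS, with DLK1 at 0 reads in ATAB. COL1A1, COL3A1 and DCN gave most of these sums. PDGFRB was lowest in ATFB, at 32.5 RPKM against 56.6, 70.7 and 97.7 RPKM in ATAB, ATAH and ATAS. The sum of 12 leukocyte markers was 105, 182, 179 and 289 RPKM in the same order, that of 5 endothelial markers 437, 357, 510 and 662 RPKM, and that of 4 muscle markers 29.96, 62.9, 53.1 and 54.8 RPKM. Single markers also differed within these lists. DES gave most of the muscle sum (26.6, 61.5, 48.2 and 52.5 RPKM), while MYH2, ACTA1 and CKM were lower in ATAB than in ATFB, and of the endothelial markers VWF was lowest in ATFB (22.3, 95.8, 143 and 183 RPKM) and CLDN5 highest there (255, 101, 156 and 212 RPKM). The part of these differences in the results was not tested, and in pooled tissue fewer dividing cells and less RNA per dividing cell cannot be told apart. Libraries can be scaled by TMM factors (edgeR) or size factors (DESeq2), which centre the bulk of clusters, or by the actin gene ACTB, in place of their totals. Scaling by TMM factors would add 0.18 to every log2 ratio of ATAB over ATFB, and take 0.28 and 0.29 from every log2 ratio of ATAH and of ATAS over ATAB. Ratios below are of RPM (reads of a cluster per M counted reads of the library) unless another scaling is named, with 95% intervals for counting error in parentheses. No scaling tried could reverse a called ratio. The calls below need a log2 ratio of at least 1 in size, and the largest shift was 0.30 in size.

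The first question was which members differed between fetal and adult fat. A cluster was called where an exact binomial test of its reads in 2 libraries gave a false discovery rate (FDR) of 0.001 or less and the log2 ratio was at least 1 in size. This test compares the 2 libraries and not the conditions, and with a biological coefficient of variation of 0.4 assumed in place of counting error alone, 1 member (CDKN2B) stayed called. In ATAB, 30 of 159 members tested were lower than in ATFB (18.9%, against 13.3% of all clusters tested) and 19 were higher (11.9%, against 9.61%). In ATAH, 44 of 160 were lower (27.5%, against 10%) and 21 were higher (13.1%, against 14%). In ATAS, 45 of 160 were lower (28.1%, against 10.8%) and 19 were higher (11.9%, against 15.6%). Members can come from described clusters only, of which 11.8%, 9.43% and 8.81% were lower and 13.97%, 19.96% and 22.7% were higher in ATAB, ATAH and ATAS. The share of higher members in ATAB thus lay above that of all clusters but below that of described ones. The 80 members of proliferation roles held 14, 36 and 32 of the lower calls and 5, 7 and 6 of the higher calls. Their median log2 ratios were -0.48, -0.93 and -0.85 in ATAB, ATAH and ATAS, beside -0.15, 0.08 and 0.09 over all clusters. The members outside these roles had medians of -0.12, 0.22 and 0.28, of which the first turned to 0.05 under TMM scaling and the second to -0.05 when ACTB was used for scaling. The split of calls in ATAB also depended on the scaling, with 18 lower and 22 higher under TMM factors, 21 and 21 under DESeq2 size factors and 42 and 11 under ACTB, and that of ATAH was 57 and 12 under ACTB. A member is said to be called or not called by library totals, and over the 6 comparisons of libraries the other scalings also added calls, 18 lower and 3 higher under TMM factors, 25 lower and 2 higher under DESeq2 size factors and 37 lower under ACTB. Of the added ones, 7 ratios were called under all 3 other scalings.

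The plot of ratios by role shows the members as points. Among members with at least 10 reads in a library, ATFB exceeded all 3 adult libraries for 53 of 80 members of proliferation roles (66.2%), compared with 37.2% of all clusters with as many reads.

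**Figure D1:**
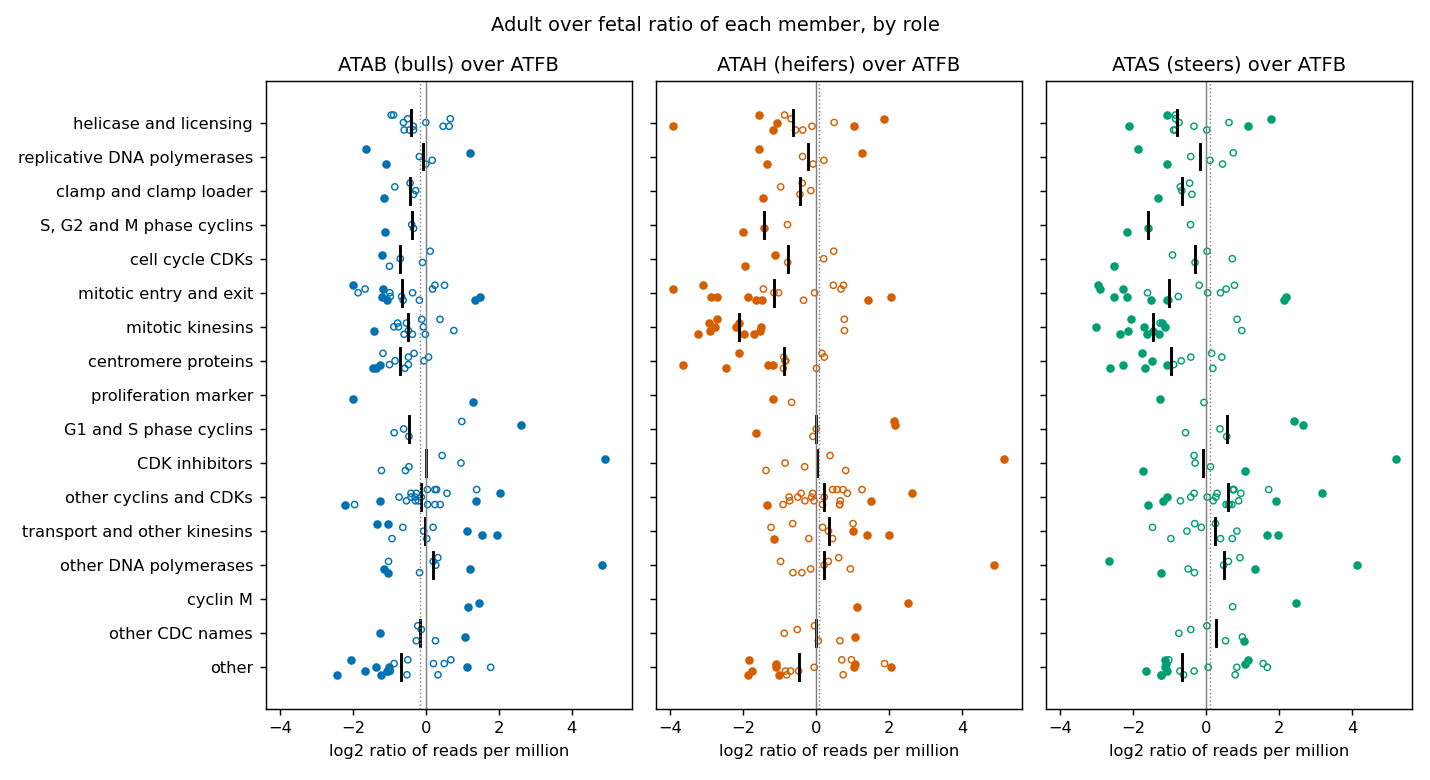
Log2 ratio of RPM of ATAB, ATAH and ATAS over ATFB for each member with reads in both libraries, by role. Filled points are called members, black bars are role medians (with zero counts at their bound, for roles with more than 2 points), and the dotted line is the median of all clusters tested. In each panel 11 of the 13 mitotic kinesins lie below 0, and the medians are -0.48, -2.12 and -1.47 in ATAB, ATAH and ATAS.

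The lower calls recurred across adults. In all 3 adult libraries 17 members (10.5%) were called lower than in ATFB, against 6.19% of all clusters, and 11 members (6.79%) were called higher, against 6.85%. Of described clusters the shares were 5.21% and 10.7%. The 11 genes of proliferation roles among the former were CCNA2, CDC20, CDCA3, CDCA7, CDCA7L, CENPK, KIF20B, NIFK, PCNA, POLE2 and POLE3. The 3 comparisons share the fetal library. When the 3 adult libraries were taken as replicates of adult fat, edgeR's quasi-likelihood test with Benjamini-Hochberg adjustment, at an FDR of 0.05 or less, called 17 of 155 members lower in adults (10.97%, against 8.39% of clusters) and 11 higher (7.097%, against 9.83%), beside 6.68% and 12.4% of described clusters. Of these 28 members, 23 were also called the same way in each of the 3 comparisons of 2 libraries. This test sets 1 fetal library against 3 adult libraries that differ in sex and castration, and only 9 members of proliferation roles were lower in it. Without ATAB the count of lower members rose from 17 to 46, and without ATAH it dropped to 3, with 5 higher.

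Replication genes came first in order of the cycle. MCM2 to MCM7 form the ring of the replicative helicase, and all 6 subunits were below their fetal level in ATAB and ATAH, at log2 ratios from -0.95 to -0.34 and from -1.56 to -0.37. MCM2 had 772 ATFB, 423 ATAB, 268 ATAH and 372 ATAS reads (15.9, 8.23, 5.402 and 7.51 RPKM). Its log2 ratios to ATFB were -0.95 (-1.12 to -0.78), -1.56 (-1.76 to -1.35) and -1.08 (-1.26 to -0.90) in ATAB, ATAH and ATAS, and the last 2 were called. ATFB was highest and ATAH lowest. MCM3 had 507 ATFB, 355 ATAB, 227 ATAH and 277 ATAS reads (10.9, 7.24, 4.797 and 5.87 RPKM). MCM4 had 542 ATFB, 374 ATAB, 262 ATAH and 329 ATAS reads (11.4, 7.46, 5.41 and 6.81 RPKM). Both followed the same order as MCM2 and were called in ATAH alone, at -1.19 (-1.42 to -0.96) and -1.08 (-1.297 to -0.86), though each other scaling also called MCM3 lower in ATAS. MCM7, the subunit with the most reads, had 1655 ATFB, 1385 ATAB, 1311 ATAH and 1702 ATAS reads (43.8, 34.6, 33.96 and 44.2 RPKM). It moved little, with a log2 ratio of 0.01 (-0.08 to 0.11) in ATAS, and was called nowhere. The 6 subunits of 1 ring therefore had unequal ratios, from -1.08 to 0.01 in ATAS. These subunits share the signature box of the MCM family, part of the ATP-binding site, and their bases there are shown because a count of uniquely matched reads depends on how far family members differ. Capitals mark the codons of the box in the deposited representative sequence of each cluster, with its bases counted from the 5′ end of that sequence.
MCM2 (Bt.54975, bases 1635 to 1661): ctaATTGACGAATTTGACAAGATGaac
MCM3 (Bt.8503, bases 1259 to 1285): tgcATTGATGAGTTTGACAAGATGtct
MCM4 (Bt.62006, bases 1678 to 1704): tgcATCGACGAGTTCGATAAGATGaat
MCM7 (Bt.49518, bases 1442 to 1468): tgcATTGACGAGTTTGACAAGATGgcg
Of these 27 bases, MCM3 and MCM7 share 24, and MCM2 and MCM3 share 19. All 7 of the members MCM2 to MCM8 hold the box.

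Around the ring the changes went both ways. MCM10, which helps to fire origins, had 22 ATFB, 37 ATAB, 81 ATAH and 76 ATAS reads (1.11, 1.77, 4.003 and 3.76 RPKM). It was called higher in ATAH at 1.85 (1.16 to 2.602) and in ATAS at 1.76 (1.06 to 2.52), opposite in direction to the ring. MCM3AP, whose product binds MCM3 and also acts in mRNA export, had 649 ATFB, 1069 ATAB, 1370 ATAH and 1471 ATAS reads (7.001, 10.9, 14.5 and 15.6 RPKM). It was called higher in ATAH and ATAS, though the call in ATAH was lost under each other scaling and that in ATAS under DESeq2 size factors and ACTB. CDC6, the loader of the helicase, was named after its values were seen, since it had under 50 reads in every library. It had 30 ATFB, 44 ATAB, 2 ATAH and 7 ATAS reads (0.785, 1.09, 0.0513 and 0.1798 RPKM). Its level in ATAH and ATAS was far under that of ATFB, at -3.94 (-7.05 to -1.96) and -2.13 (-3.56 to -0.91), whereas in ATAB it was not called, at 0.47 (-0.23 to 1.19). The other members of this role (MCM5, MCM6, MCM8, CDC7 and CDC45) were called in no comparison. Under DESeq2 factors and under ACTB, MCM6 was called lower than ATFB in ATAH and ATAS, and MCM5 and CDC45 in ATAS. Under ACTB alone MCM2 and MCM6 were also called lower in ATAB, at -1.18 and -1.12.

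Subunits of DNA polymerase epsilon split in the same way. POLE2, a noncatalytic subunit, had 101 ATFB, 34 ATAB, 35 ATAH and 28 ATAS reads (3.89, 1.24, 1.32 and 1.06 RPKM). POLE3, a small histone-fold subunit, had 1891 ATFB, 929 ATAB, 758 ATAH and 914 ATAS reads (64.4, 29.9, 25.3 and 30.6 RPKM). Both were called lower in each adult library, POLE2 at log2 ratios of -1.65, -1.56 and -1.88 and POLE3 at -1.11, -1.35 and -1.08 in ATAB, ATAH and ATAS, although POLE3 in ATAB lost its call under TMM and DESeq2 factors. In contrast, POLE, the catalytic subunit, had 40 ATFB, 98 ATAB, 97 ATAH and 68 ATAS reads (0.352, 0.815, 0.836 and 0.587 RPKM). It was called higher in ATAB at 1.21 (0.67 to 1.78) and in ATAH at 1.25 (0.70 to 1.82), and both calls were lost when ACTB was used for scaling. POLD2, a subunit of polymerase delta, had 442 ATFB, 413 ATAB, 349 ATAH and 335 ATAS reads (18.1, 16.02, 14.03 and 13.5 RPKM) and was not called. POLA1 and POLA2, of the primase complex, were not called either.

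PCNA, the sliding clamp, fell in each adult library. It had 980 ATFB, 467 ATAB, 366 ATAH and 395 ATAS reads (31.98, 14.4, 11.7 and 12.7 RPKM). The log2 ratios to ATFB were -1.15 (-1.31 to -0.99), -1.45 (-1.63 to -1.28) and -1.34 (-1.51 to -1.17) in ATAB, ATAH and ATAS, and the first lost its call under TMM factors. The quasi-likelihood test of adults against ATFB also gave PCNA a log2 ratio of -1.32 with an adjusted p of 0.0301. Of the clamp loader, RFC5 had 1408 ATFB, 1103 ATAB, 1104 ATAH and 1044 ATAS reads (21.2, 15.7, 16.3 and 15.4 RPKM). All 4 loader subunits (RFC2 to RFC5) were below ATFB in every adult library and none was called, although each other scaling called RFC4 lower in ATAH.

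**Figure D2:**
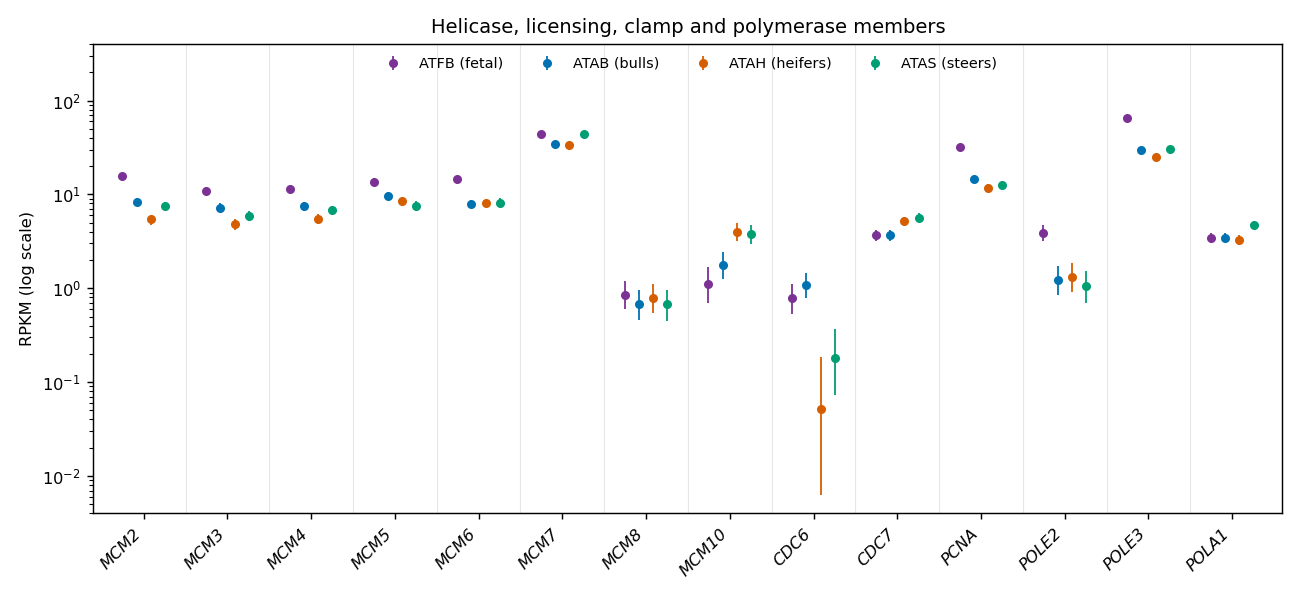
RPKM (log axis) of 14 replication members in the 4 libraries. Points are libraries and bars are exact 95% Poisson intervals, which cover counting error only. PCNA and POLE3 sit highest in ATFB, MCM7 differs little, MCM10 is higher in ATAH and ATAS, and CDC6 has 2 reads in ATAH and 7 in ATAS.

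Cyclins of S phase and mitosis were all highest in ATFB, then ATAB. CCNA2, the cyclin of S phase and G2, had 129 ATFB, 63 ATAB, 33 ATAH and 29 ATAS reads (4.602, 2.13, 1.15 and 1.02 RPKM). Lower calls were made in all 3 adult libraries, most in ATAS at -2.18 (-2.81 to -1.59), and in ATAB at -1.11 (-1.57 to -0.67) with a call that TMM and DESeq2 factors removed. CCNB2, a mitotic cyclin, had 92 ATFB, 77 ATAB, 35 ATAH and 31 ATAS reads (4.002, 3.17, 1.49 and 1.32 RPKM). In ATAB it was close to ATFB at -0.34 (-0.79 to 0.12), and in ATAH and ATAS it was called lower at -1.42 (-2.03 to -0.85) and -1.596 (-2.23 to -0.99). CCNF, a cyclin that is part of a ubiquitin ligase, had 167 ATFB, 135 ATAB, 99 ATAH and 126 ATAS reads (2.7998, 2.14, 1.63 and 2.07 RPKM) and was not called, except as lower in ATAH under ACTB. TMM and DESeq2 factors also called CCNA2 lower in ATAH and ATAS than in ATAB.

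Among the CDKs of the cycle, CDK4 carried the most reads. CDK4, the partner of D cyclins in G1, had 1882 ATFB, 870 ATAB, 884 ATAH and 1008 ATAS reads (90.001, 39.4, 41.4 and 47.3 RPKM). It was called lower in ATAB at -1.19 (-1.31 to -1.08) and in ATAH at -1.12 (-1.24 to -1.004), and its ratio in ATAS, -0.93 (-1.04 to -0.82), fell short of the threshold of 1 and passed it under each other scaling. CDK1, the kinase of mitosis, was named after its values were seen. It had 34 ATFB, 18 ATAB, 9 ATAH and 6 ATAS reads (1.75, 0.876, 0.454 and 0.303 RPKM). It followed the order of the mitotic cyclins and was called in ATAH at -1.95 (-3.19 to -0.86) and in ATAS at -2.53 (-4.07 to -1.26). CDK3, a kinase of the exit from rest, had 323 ATFB, 210 ATAB, 381 ATAH and 539 ATAS reads (13.4, 8.25, 15.5 and 21.98 RPKM). It was called in a single comparison, higher in ATAS than in ATAB at 1.41 (1.18 to 1.65). These kinases bind their cyclins through the PSTAIRE helix, whose codons are in capitals.
CDK1 (Bt.91771, bases 245 to 271): gttCCTAGTACTGCAATTCGGGAAata
CDK3 (Bt.22531, bases 164 to 190): gtcCCAAGCACTGCCATCAGGGAGatc
CDK4 (Bt.4661, bases 287 to 313): ctgCCCATCAGCACCGTTCGGGAGgtg
CDK1 and CDK3 share 19 of these 27 bases and CDK1 and CDK4 share 14. CDK2 and CDK6 were called in no comparison, though CDK2 was called lower in ATAH under ACTB.

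Regulators of mitotic entry and exit held 7 lower calls among 17 members in ATAH and in ATAS (41.2%, against 10% and 10.8% of all clusters), and 4 in ATAB (23.5%, against 13.3%). CDC20, which directs the APC/C to its targets, had 177 ATFB, 83 ATAB, 12 ATAH and 24 ATAS reads (6.46, 2.86, 0.429 and 0.859 RPKM). It was called lower at -1.17 (-1.57 to -0.79) in ATAB, -3.91 (-4.89 to -3.07) in ATAH and -2.91 (-3.59 to -2.29) in ATAS, the first of which TMM factors removed. The value in ATAH was 15.1-fold below that in ATFB, and 6.68-fold below that in ATAB. CDCA3, a trigger of mitotic entry, had 135 ATFB, 62 ATAB, 21 ATAH and 24 ATAS reads (7.84, 3.41, 1.195 and 1.37 RPKM). CDCA8 (borealin), of the chromosomal passenger complex, had 93 ATFB, 50 ATAB, 13 ATAH and 21 ATAS reads (2.74, 1.39, 0.375 and 0.607 RPKM). CDCA2, a subunit that targets protein phosphatase 1 to chromatin, had 99 ATFB, 68 ATAB, 32 ATAH and 35 ATAS reads (1.85, 1.204, 0.587 and 0.643 RPKM). All 3 were highest in ATFB, lower in ATAB and lowest in ATAH and ATAS. In ATAH their log2 ratios against the fetal library were -2.71, -2.87 and -1.66. CDCA7, which takes part in chromatin remodelling, had 433 ATFB, 115 ATAB, 52 ATAH and 56 ATAS reads (10.9, 2.74, 1.28 and 1.38 RPKM). Its fall was called in each adult library, at -1.99 (-2.302 to -1.69), -3.09 (-3.53 to -2.67) and -2.98 (-3.41 to -2.57), and also by the quasi-likelihood test (log2 ratio -2.57, adjusted p = 0.0225). Its relative CDCA7L had 458 ATFB, 233 ATAB, 167 ATAH and 220 ATAS reads (11.1, 5.32, 3.95 and 5.21 RPKM), and was called in all 3, though not in ATAB under TMM or DESeq2 factors. CDC25B, a phosphatase that activates CDKs, had 264 ATFB, 176 ATAB, 74 ATAH and 158 ATAS reads (5.83, 3.67, 1.6003 and 3.42 RPKM). Against ATFB it was called lower in ATAH alone, at -1.86 (-2.26 to -1.49), and under ACTB in ATAS too.

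The phosphatases of mitotic exit went the other way. CDC14A had 21 ATFB, 57 ATAB, 58 ATAH and 94 ATAS reads (0.713, 1.83, 1.93 and 3.13 RPKM). CDC14B had 15 ATFB, 44 ATAB, 63 ATAH and 70 ATAS reads (0.5599, 1.55, 2.304 and 2.57 RPKM). Both had few reads in ATFB and were called higher in each adult library, from 1.36 (0.62 to 2.16) to 2.14 (1.44 to 2.89) for CDC14A and from 1.47 (0.60 to 2.42) to 2.196 (1.38 to 3.11) for CDC14B, and ACTB scaling removed the calls of both in ATAB and of CDC14A in ATAH. The members with the most reads in this role were CDC34 and CDC27. CDC34, a ubiquitin-conjugating enzyme, had 854 ATFB, 1072 ATAB, 1209 ATAH and 760 ATAS reads (35.98, 42.7, 49.9 and 31.4 RPKM). CDC27, a core subunit of the APC/C, had 568 ATFB, 681 ATAB, 931 ATAH and 844 ATAS reads (7.08, 8.02, 11.4 and 10.3 RPKM). Neither these nor the APC/C subunits CDC16 and CDC23 were called.

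The mitotic kinesins, motors that build and elongate the spindle, were nearly all lower in heifers and steers than in the fetal library. In ATAH 11 of 13 were called lower than in ATFB (84.6%, against 10% of clusters), in ATAS 10 of 13 (76.9%, against 10.8%), and in ATAB 1 of 13 (7.69%, against 13.3%). Their summed RPM was 103 in ATFB (95% interval 97.8 to 108), 69.8 in ATAB (65.8 to 74.0), 30.02 in ATAH (27.4 to 32.9) and 38.8 in ATAS (35.8 to 42.05). KIF20A, a motor of cytokinesis, had 276 ATFB, 193 ATAB, 30 ATAH and 54 ATAS reads (5.997, 3.97, 0.639 and 1.15 RPKM). It was called lower in ATAH at -3.23 (-3.83 to -2.68) and in ATAS at -2.38 (-2.83 to -1.95), and in ATAB it was lower by less than the threshold at -0.60 (-0.87 to -0.33). KIF11, the motor that pushes spindle poles apart, had 127 ATFB, 133 ATAB, 33 ATAH and 42 ATAS reads (2.18, 2.16, 0.556 and 0.709 RPKM). The ratio of ATAB to ATFB was -0.01 (-0.38 to 0.35), and both lay well above ATAH and ATAS. KIF4A, a chromosome motor, had 95 ATFB, 72 ATAB, 13 ATAH and 22 ATAS reads (1.55, 1.11, 0.208 and 0.352 RPKM). KIF22, another chromosome motor, had 120 ATFB, 69 ATAB, 18 ATAH and 15 ATAS reads (3.73, 2.03, 0.549 and 0.458 RPKM). KIFC1, a minus-end motor that gathers spindle poles, had 121 ATFB, 122 ATAB, 43 ATAH and 56 ATAS reads (3.36, 3.21, 1.17 and 1.53 RPKM). All 3 were called lower in ATAH and in ATAS, at -2.90, -2.77 and -1.52 in ATAH. KIF23, a partner in the central spindle, had 170 ATFB, 105 ATAB, 40 ATAH and 74 ATAS reads (3.299, 1.93, 0.7604 and 1.41 RPKM). KIF2C, which takes microtubule ends apart at the kinetochore, had 77 ATFB, 63 ATAB, 24 ATAH and 32 ATAS reads (1.76, 1.36, 0.536 and 0.716 RPKM). KIF15, a spindle motor, had 89 ATFB, 56 ATAB, 20 ATAH and 28 ATAS reads (1.22, 0.729, 0.2697 and 0.378 RPKM). These were called lower in ATAH at -2.12, -1.71 and -2.18 and in ATAS at -1.23, -1.29 and -1.69. KIF18A, which limits chromosome oscillation, had 52 ATFB, 38 ATAB, 7 ATAH and 22 ATAS reads (1.06, 0.734, 0.1401 and 0.441 RPKM), and was called in ATAH but in ATAS under each other scaling only. KIF18B, named after its values were seen, had 45 ATFB, 44 ATAB, 7 ATAH and 11 ATAS reads (0.965, 0.892, 0.147 and 0.232 RPKM) and was called in both.

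KIF20B was the exception with a call in ATAB, where ACTB scaling added KIF22 and KIF23. KIF20B, a motor of cytokinesis, had 332 ATFB, 131 ATAB, 116 ATAH and 122 ATAS reads (3.92, 1.46, 1.34 and 1.42 RPKM). The adult libraries lay together, at -1.42 (-1.72 to -1.13), -1.55 (-1.86 to -1.24) and -1.47 (-1.78 to -1.17) relative to ATFB, and it was also the only mitotic kinesin called by the quasi-likelihood test of adults against ATFB (adjusted p = 0.0201). KIF14 and KIF24 had higher levels in all adult libraries than in ATFB and were not called. The motor domain carries a conserved motif next to the nucleotide, shown in capitals for mitotic motors and for KIF1C, a transport kinesin that moved the opposite way.
KIF20A (Bt.18081, bases 1296 to 1325): ctctgtGATCTCGCTGGCTCAGAGcgctgc
KIF11 (Bt.37915, bases 810 to 839): ttggttGATCTTGCAGGCAGTGAGaacatt
KIF4A (Bt.24872, bases 715 to 744): ctcgtaGACCTTGCTGGATCAGAAagacag
KIF1C (Bt.29931, bases 736 to 765): ttggtgGACCTTGCTGGCAGCGAGcgggcc
Of the 26 members named as kinesins of the mitotic and transport lists, 25 hold this motif.

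**Figure D3:**
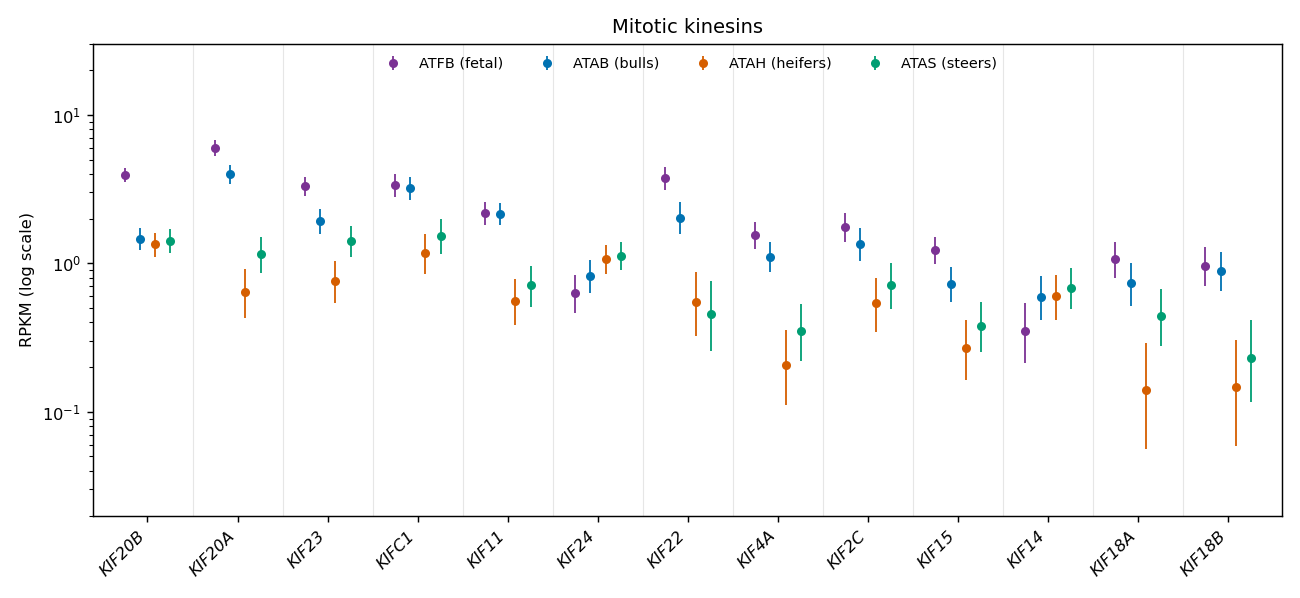
RPKM (log axis) of the 13 mitotic kinesins in the 4 libraries, ordered by total reads. Points are libraries and bars are exact 95% Poisson intervals, which cover counting error only. In 11 of them ATFB is highest and ATAB is above ATAH and ATAS, and KIF14 and KIF24 are lowest in ATFB.

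Centromere proteins, which form the base of the kinetochore, were called lower for 3 of 12 members in ATAB (25%, against 13.3% of all clusters), 5 in ATAH (41.7%, against 10%) and 6 in ATAS (50%, against 10.8%). None was called higher, where 9.61%, 14% and 15.6% of all clusters were. CENPF, a kinetochore protein made in G2 and mitosis, had 368 ATFB, 195 ATAB, 30 ATAH and 77 ATAS reads (2.37, 1.19, 0.189 and 0.487 RPKM). It was called in ATAH at -3.65 (-4.23 to -3.11) and in ATAS at -2.28 (-2.66 to -1.93), and its ratio in ATAB was -0.997 (-1.25 to -0.74), at the edge of the threshold. CENPT, which links the centromere to the outer kinetochore, had 298 ATFB, 226 ATAB, 122 ATAH and 145 ATAS reads (9.52, 6.83, 3.82 and 4.55 RPKM), with calls in ATAH and ATAS. CENPL had 259 ATFB, 115 ATAB, 116 ATAH and 142 ATAS reads (8.33, 3.499, 3.66 and 4.49 RPKM). CENPQ had 133 ATFB, 54 ATAB, 73 ATAH and 42 ATAS reads (5.04, 1.94, 2.71 and 1.56 RPKM). CENPN had 55 ATFB, 56 ATAB, 31 ATAH and 20 ATAS reads (1.91, 1.84, 1.06 and 0.683 RPKM). These 3 subunits of the constitutive centromere network did not share an order, since relative to ATFB CENPL was called lower in ATAB and ATAH, CENPQ in ATAB and ATAS, and CENPN in ATAS alone, although each other scaling called CENPL in ATAS and DESeq2 factors and ACTB called CENPQ in ATAH. CENPK, of the same network, was named after its values were seen. It had 49 ATFB, 19 ATAB, 9 ATAH and 8 ATAS reads (2.01, 0.736, 0.361 and 0.322 RPKM), and was called in all 3 adult libraries, in ATAB not under TMM or DESeq2 factors. CENPC, the centromere protein with the most reads, had 356 ATFB, 252 ATAB, 366 ATAH and 411 ATAS reads (6.88, 4.605, 6.93 and 7.795 RPKM) and was not called.

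MKI67, the antigen used to mark dividing cells, did not follow the fetal order. It had 234 ATFB, 603 ATAB, 150 ATAH and 228 ATAS reads (1.53, 3.72, 0.958 and 1.46 RPKM). ATAB was highest, at a log2 ratio to ATFB of 1.29 (1.07 to 1.51), while ATAH was below ATFB without a call, at -0.67 (-0.98 to -0.37), and ATAS was level with it at -0.06 (-0.33 to 0.21). NIFK, a nucleolar protein named for its binding to MKI67, had 1391 ATFB, 368 ATAB, 624 ATAH and 586 ATAS reads (56.04, 14.02, 24.6 and 23.2 RPKM). It was called lower in every adult library, at -1.999 (-2.17 to -1.83), -1.19 (-1.32 to -1.05) and -1.27 (-1.42 to -1.13). MKI67 and NIFK therefore had opposite directions in ATAB.

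Cell cycle genes whose descriptions hold none of the phrases were counted from a list of 82, of which 68 had a named cluster. Of these, 7, 21 and 22 were called lower than in ATFB in ATAB, ATAH and ATAS (10.3%, 30.9% and 32.4%, against 13.3%, 10% and 10.8% of all clusters), and 3, 4 and 5 were called higher (4.41%, 5.88% and 7.35%, against 9.61%, 14% and 15.6%). ATFB was the highest library for 44 of them (64.7%), against 37.2% of all clusters and 31.1% of described ones with at least 10 reads in a library. Of the 68, 13 were called lower in both ATAH and ATAS than in ATAB (19.1%, against 0.594%). Some of those called were named after their values were seen. NUSAP1, a spindle protein, had 274 ATFB, 117 ATAB, 32 ATAH and 27 ATAS reads and was called lower in all 3 adult libraries, at log2 ratios of -1.31, -3.13 and -3.37. RRM2, a subunit of the enzyme that makes deoxynucleotides, had 337, 278, 57 and 86 reads, with calls in ATAH and ATAS at -2.59 and -1.997. UHRF1, which helps to maintain DNA methylation, and NCAPG, of condensin, were called lower in ATAH and ATAS as well, at -2.45 and -3.04 and at -2.41 and -3.01. Apart from RBL2, the genes called higher than in ATFB were 5, also named after their values were seen. ZWINT, a kinetochore protein, was higher in all 3 adult libraries, at 1.54, 1.11 and 1.33. DESeq2 factors and ACTB take 0.14 and 0.27 from every log2 ratio of ATAH over ATFB, so either puts ZWINT in ATAH under the threshold. The retinoblastoma protein gene RB1 was higher in ATAH and ATAS at 1.51 and 1.16, its relative RBL1 in ATAB and ATAS at 1.58 and 1.12, and E2F3, a transcription factor they bind, in ATAH and ATAS at 2.53 and 2.43. In ATAS over ATFB the same scalings take 0.16 and 0.25. Both put RBL1 in ATAS under the threshold, and ACTB also puts RB1 there under it. TUBB, a beta tubulin, had 4 ATFB, 95 ATAB, 32 ATAH and 2 ATAS reads, with calls in ATAB and ATAH. Tubulin genes share much of their sequence, so these calls are uncertain, and the part of shared sequence in them was not tested. A further 3 genes were taken by their reads. STMN1, which binds tubulin, was below ATFB in all 3 adult libraries without a call, with log2 ratios of -0.17, -0.76 and -0.50, and RPA1, of the single-strand DNA-binding complex, had 0.70, 0.59 and 0.38. RBL2, a relative of the retinoblastoma protein, had 0.43, 0.95 and 1.37, the last of which was called.

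The second question was which members differed among the adults. In ATAH 20 of 161 members were called lower than in ATAB (12.4%, against 1.26% of all clusters tested) and 6 were called higher (3.73%, against 4.32%). In ATAS 14 were lower than in ATAB (8.696%, against 1.89%) and 11 were higher (6.83%, against 7%). Of described clusters 2.05% and 2.58% were lower than in ATAB in ATAH and ATAS, and 5.199% and 10.2% were higher. Members of proliferation roles held 19 of the 20 lower calls in ATAH and 13 of the 14 in ATAS, and 2 of the 6 and 4 of the 11 higher calls. Their median log2 ratio was -0.15 in ATAH and -0.12 in ATAS, although the medians of all clusters were 0.28 and 0.32. Under TMM factors the lower and higher calls became 24 and 1 in ATAH and 22 and 4 in ATAS, and the same counts were found under DESeq2 size factors. In both ATAH and ATAS, 13 members (8.02%) were called lower than in ATAB, against 0.594% of all clusters and 1.07% of described ones. These were CCNB2, CDC20, CDC6, CDCA3, CDKN1C, CENPF, KIF11, KIF18B, KIF20A, KIF22, KIF4A, KIFC1 and MKI67. Both comparisons share the bull library.

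Mitotic kinesins were the most frequent role in this set, with 6 of the 13 genes. Called lower than in ATAB were 10 of the 13 in ATAH (76.9%, against 1.26% of all clusters) and 6 of the 13 in ATAS (46.2%, against 1.89%), with role medians of -1.45 and -0.95 beside 0.28 and 0.32 over all clusters. KIF20A was -2.63 (-3.24 to -2.07) in ATAH and -1.78 (-2.25 to -1.34) in ATAS relative to ATAB. For CENPF the values were -2.65 (-3.26 to -2.09) and -1.29 (-1.69 to -0.90), and for CDC20 they were -2.74 (-3.75 to -1.86) and -1.74 (-2.46 to -1.07). MKI67 was -1.96 (-2.22 to -1.696) in ATAH, a 3.88-fold difference, and -1.35 (-1.58 to -1.13) in ATAS, a 2.55-fold difference, and its sequence was covered by reads over 88.7% of its length in ATAB and 63.8% in ATAH. CDC6 rested on 44 reads in ATAB, and its ratios of -4.41 (-7.499 to -2.47) and -2.598 (-3.99 to -1.44) had wide intervals. Of the 6 subunits of the MCM ring, 5 were below ATAB in ATAH and 4 in ATAS, with log2 ratios from -0.61 to 0.02 and from -0.35 to 0.35, and none was called under any scaling tried. MCM10 was called higher than in ATAB in both, at 1.18 (0.60 to 1.78) and 1.09 (0.51 to 1.700), and TMM and DESeq2 factors removed both calls. Fibroblast and preadipocyte markers were ordered alike in their sum, at 8021 RPKM in ATAB, 2580 in ATAH and 3378 in ATAS, though only 4 of the 8 were higher in ATAB than in both others. Most of the sum in ATAB came from COL1A1 (3412, 639 and 1035 RPKM) and COL3A1 (2903, 766 and 676 RPKM). PDGFRB (56.6, 70.7 and 97.7 RPKM), THY1 (217, 219 and 283 RPKM) and DLK1 (0, 1.91 and 0.911 RPKM) were lowest in ATAB. Adipocyte markers summed to 7556, 7649 and 6851 RPKM, and red cell markers to 129, 127 and 90.2 RPKM. Their part in the difference was not tested.

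**Figure D4:**
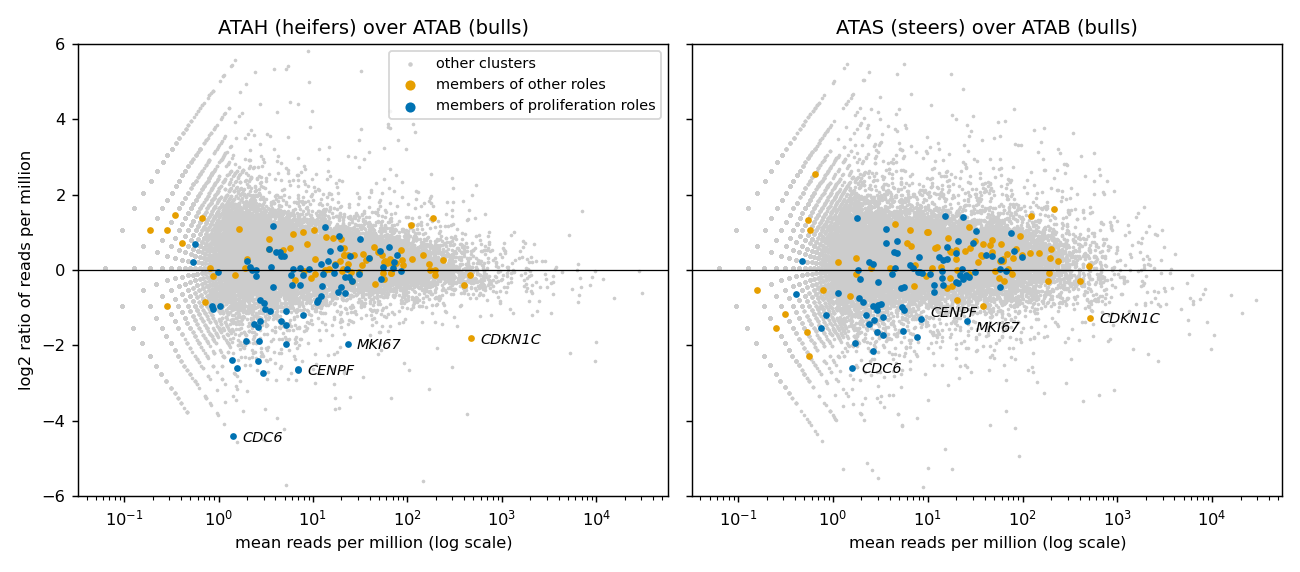
Log2 ratio of ATAH (left) and ATAS (right) over ATAB against mean RPM (log axis) for all clusters with reads in both libraries, members in colour. The vertical axis stops at -6 and 6. Most called members of proliferation roles lie below 0 while most clusters lie above it, and CDKN1C is the member outside these roles that was called lower in both.

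Heifers and steers differed least. Between ATAS and ATAH no member was called lower in ATAS (1.49% of all clusters were), and 3 of 162 were called higher (1.85%, against 1.59%). These were CENPF at 1.36 (0.74 to 2.02), CDC25B at 1.097 (0.69 to 1.52) and CCND2 at 1.09 (0.78 to 1.403). Of the mitotic kinesins, 12 of 13 had a higher ratio in ATAS, with a median of 0.42, and none was called.

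Of the 5 D and E cyclins, which act in G1 and at the start of S phase, 1 was called lower than in ATFB in ATAH (20%, against 10% of all clusters) and none in ATAB or ATAS, where 13.3% and 10.8% of all clusters were. Called higher were 1 in ATAB (20%, against 9.61%) and 2 each in ATAH and ATAS (40%, against 14% and 15.6%). CCND3, the D cyclin with the most reads, had 1183 ATFB, 820 ATAB, 1212 ATAH and 1562 ATAS reads (38.7, 25.4, 38.8 and 50.2 RPKM). CCND1 had 453 ATFB, 347 ATAB, 436 ATAH and 680 ATAS reads (24.7, 17.9, 23.3 and 36.4 RPKM). Neither was called against ATFB, and CCND1 was called higher in ATAS than in ATAB at 1.02 (0.84 to 1.22) under library totals but not under TMM or DESeq2 factors. CCND2 had 399 ATFB, 231 ATAB, 129 ATAH and 274 ATAS reads (26.4, 14.5, 8.37 and 17.8 RPKM). It was called lower in ATAH than in ATFB, at -1.66 (-1.96 to -1.37), and in ATAB under ACTB alone. E cyclins, which start S phase with CDK2, were higher in adults. CCNE1 had 11 ATFB, 71 ATAB, 50 ATAH and 71 ATAS reads (0.405, 2.47, 1.802 and 2.56 RPKM). The fetal count was low, and the log2 ratios were 2.61 (1.68 to 3.68), 2.15 (1.19 to 3.25) and 2.66 (1.74 to 3.73), called in each adult library. CCNE2 had 64 ATFB, 134 ATAB, 286 ATAH and 348 ATAS reads (1.58, 3.13, 6.92 and 8.44 RPKM). It was called in ATAH at 2.13 (1.73 to 2.54) and in ATAS at 2.42 (2.03 to 2.82), and in ATAB, at 0.99 (0.55 to 1.44), it was called under TMM and DESeq2 factors only. Relative to ATAB, CCNE2 was called higher in ATAH at 1.14, a call that TMM and DESeq2 factors removed, and in ATAS at 1.43. Both E cyclins were also higher in adults by the quasi-likelihood test, with log2 ratios of 2.46 and 1.89 and adjusted p of 0.0312 and 0.0482.

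CDK inhibitors split by gene. CDKN2B (p15), an inhibitor of CDK4 and CDK6, had 9 ATFB, 287 ATAB, 328 ATAH and 336 ATAS reads (0.219, 6.61, 7.83 and 8.03 RPKM). Its log2 ratios to ATFB were 4.91 (3.97 to 6.06), 5.16 (4.22 to 6.300) and 5.196 (4.25 to 6.34), the largest of any member with at least 50 reads in a library. It had the smallest adjusted p of all members in the quasi-likelihood test (0.00534, log2 ratio 5.04). CDKN1C (p57), an imprinted gene in mammals, had 5763 ATFB, 11871 ATAB, 3264 ATAH and 4746 ATAS reads (315, 615, 175 and 255 RPKM). ATAB was highest, and relative to it ATAH was at -1.81 (-1.87 to -1.76) and ATAS at -1.27 (-1.32 to -1.22), both called. Against ATFB no adult library was called, with ATAB at 0.96 (0.92 to 1.01) and ATAH at -0.85 (-0.91 to -0.79). The scaling decided this, since ATAB was called higher under TMM factors (1.14) and DESeq2 factors (1.11), and ATAH was called lower under ACTB (-1.12). CDKN1A (p21), an inhibitor of several CDKs, had 2361 ATFB, 1694 ATAB, 4229 ATAH and 5033 ATAS reads (63.01, 42.8, 111 and 132 RPKM). In contrast it was lowest in ATAB, from which ATAH differed by 1.37 (1.29 to 1.45) and ATAS by 1.62 (1.55 to 1.71), both called higher. The call of CDKN1A in ATAS against ATFB, at 1.07 (0.99 to 1.14), was lost under each other scaling. CDKN1A and CDKN1C belong to the same family, and the codons of the motif by which they touch cyclin and CDK are in capitals.
CDKN1A (Bt.2749, bases 158 to 184): gccTGCCGCTGCCTCTTTGGTCCAgtg
CDKN1C (Bt.4804, bases 206 to 232): gccTGCCGCAGCCTCTTCGGGCCCgtg
They share 23 of these 27 bases. CDKN1B and CDKN2C were called in no comparison, though TMM and DESeq2 factors called CDKN2C lower in ATAS than in ATAB. CDKN2D (p19), named after its values were seen, had 33 ATFB, 15 ATAB, 13 ATAH and 10 ATAS reads (1.72, 0.741, 0.665 and 0.513 RPKM). Under library totals it was the only inhibitor called lower than in ATFB, in ATAS at -1.75 (-2.93 to -0.69), and under ACTB in ATAH too.

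**Figure D5:**
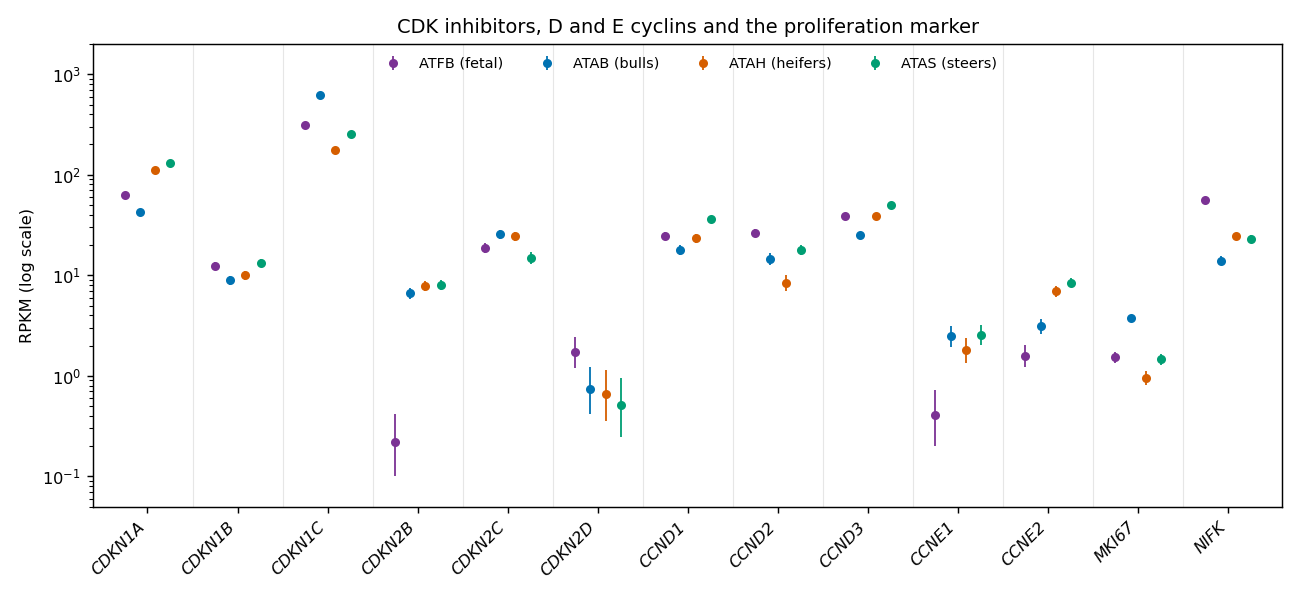
RPKM (log axis) of the CDK inhibitors, the D and E cyclins, MKI67 and NIFK in the 4 libraries. Points are libraries and bars are exact 95% Poisson intervals, which cover counting error only. CDKN2B has 9 reads in ATFB and 287 to 336 in adults, CDKN1C and MKI67 are highest in ATAB, and CDKN1A is lowest there.

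Of the cyclins and CDKs of transcription and other roles, 2, 1 and 3 were called lower than in ATFB in ATAB, ATAH and ATAS (8.696%, 4% and 12.5% of those tested, against 13.3%, 10% and 10.8% of all clusters), and 3 were called higher in each (13.04%, 12% and 12.5%, against 9.61%, 14% and 15.6%). CCNT1, the cyclin of the elongation factor P-TEFb, had 63 ATFB, 272 ATAB, 395 ATAH and 577 ATAS reads (1.87, 7.63, 11.5 and 16.8 RPKM). It rose in every adult library, up to 3.17 (2.79 to 3.57) in ATAS. CCNC, the cyclin of the Mediator kinase module, had 702 ATFB, 159 ATAB, 280 ATAH and 234 ATAS reads (21.7, 4.65, 8.49 and 7.11 RPKM). CDK19, a kinase partner of CCNC in that module, had 95 ATFB, 260 ATAB, 278 ATAH and 361 ATAS reads (2.37, 6.14, 6.798 and 8.85 RPKM). The cyclin fell in each adult library, at -2.22, -1.36 and -1.61, while the kinase rose, at 1.37, 1.52 and 1.90. Both changes were called by the quasi-likelihood test as well, with adjusted p of 0.0150 and 0.0225. CCNL1, a cyclin of splicing, had 1477 ATFB, 1079 ATAB, 2387 ATAH and 2784 ATAS reads (28.2, 19.5, 44.7 and 52.2 RPKM). It was called between adults only, higher than in ATAB in ATAH at 1.196 (1.09 to 1.301), a call that TMM and DESeq2 factors removed, and in ATAS at 1.42 (1.32 to 1.52). CDK10 had 144 ATFB, 64 ATAB, 89 ATAH and 64 ATAS reads (5.56, 2.34, 3.36 and 2.42 RPKM), with lower calls in ATAB and ATAS. CDK2AP1, which binds CDK2, had 845 ATFB, 819 ATAB, 609 ATAH and 410 ATAS reads (37.5, 34.4, 26.5 and 17.9 RPKM) and was called lower in ATAS. CDKL2, named after its values were seen, had 0 ATFB, 17 ATAB, 35 ATAH and 19 ATAS reads (0, 0.413, 0.881 and 0.479 RPKM), which is at least 5.36-fold, 11.4-fold and 6.22-fold higher in the adult libraries if up to 3 reads are allowed for the count of 0. The members with the most reads, CCNG1 and CCNI, were called nowhere, except CCNG1 as lower in ATAH under ACTB. CCNG1 had 4414 ATFB, 2801 ATAB, 2699 ATAH and 3345 ATAS reads (122, 73.5, 73.4 and 91.1 RPKM). CCNI had 2957 ATFB, 2608 ATAB, 2826 ATAH and 3700 ATAS reads (64.1, 53.5, 60.1 and 78.8 RPKM).

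Cyclin M proteins mediate magnesium transport and are cyclins by name. CNNM4 had 37 ATFB, 107 ATAB, 215 ATAH and 208 ATAS reads (0.877, 2.398, 4.99 and 4.84 RPKM). CNNM2 had 56 ATFB, 132 ATAB, 125 ATAH and 94 ATAS reads (1.11, 2.48, 2.43 and 1.83 RPKM). CNNM4 was called higher in every adult library, at 1.45 (0.90 to 2.03), 2.51 (2.001 to 3.05) and 2.46 (1.95 to 3.01), and CNNM2 in ATAB and ATAH, both of which ACTB scaling removed, as did DESeq2 factors for ATAH.

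Transport kinesins were called in both directions. KIF1C, a vesicle motor, had 2515 ATFB, 7760 ATAB, 6788 ATAH and 8055 ATAS reads (42.7, 125, 113 and 134 RPKM). Each adult library was called higher, at 1.55 (1.48 to 1.61), 1.403 (1.34 to 1.47) and 1.65 (1.59 to 1.72), and by the quasi-likelihood test (adjusted p = 0.0379). KIF3C, a heavy chain of a heterotrimeric motor, had 80 ATFB, 330 ATAB, 324 ATAH and 316 ATAS reads (1.02, 3.96, 4.03 and 3.94 RPKM). Its adult levels were alike, at log2 ratios of 1.96, 1.99 and 1.96. KIF5B, the conventional kinesin heavy chain, had 1413 ATFB, 3281 ATAB, 2914 ATAH and 2573 ATAS reads (22.9, 50.4, 46.4 and 41.02 RPKM), called higher in ATAB and ATAH, the former not under ACTB and the latter under no other scaling. KIF3A, the partner of KIF3B in cilia, had 252 ATFB, 106 ATAB, 165 ATAH and 206 ATAS reads (5.48, 2.18, 3.51 and 4.396 RPKM) and was called lower in ATAB, at -1.33 (-1.67 to -0.997). KIFC2 had 339 ATFB, 175 ATAB, 156 ATAH and 176 ATAS reads (7.27, 3.55, 3.28 and 3.704 RPKM) and was called lower in ATAB and ATAH, the former not under TMM or DESeq2 factors, and in ATAS under each other scaling only. KIF5C, a neuronal motor named after its values were seen, had 30 ATFB, 0 ATAB, 13 ATAH and 11 ATAS reads (0.529, 0, 0.225 and 0.1904 RPKM), which puts ATAB at least 10.6-fold below ATFB if up to 3 reads are allowed for the count of 0.

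Repair, translesion and mitochondrial polymerases showed no common direction. POLB, of base excision repair, had 576 ATFB, 299 ATAB, 379 ATAH and 249 ATAS reads (26.8, 13.2, 17.3 and 11.4 RPKM) and was called lower in ATAB and ATAS, the former not under TMM or DESeq2 factors. POLG2, the accessory subunit of the mitochondrial polymerase, had 176 ATFB, 84 ATAB, 162 ATAH and 127 ATAS reads (7.22, 3.26, 6.51 and 5.11 RPKM) and was called lower in ATAB, though not under TMM factors. POLM, of end joining, had 47 ATFB, 114 ATAB, 92 ATAH and 121 ATAS reads (1.74, 4.002, 3.35 and 4.41 RPKM) and was called higher in ATAB and ATAS, the former not under ACTB. POLI and POLH, translesion enzymes with the most reads in this role, were called nowhere. POLI had 421 ATFB, 512 ATAB, 543 ATAH and 652 ATAS reads (11.3, 13.03, 14.3 and 17.2 RPKM). POLH had 397 ATFB, 507 ATAB, 472 ATAH and 562 ATAS reads (7.37, 8.91, 8.59 and 10.2 RPKM). POLN, named after its values were seen, had 1 read in ATFB and 30, 30 and 18 in adults, and its log2 ratios of 4.83 (2.24 to 10.18) in ATAB, 4.88 (2.29 to 10.23) in ATAH and 4.14 (1.48 to 9.52) in ATAS, all called, have wide intervals. POLQ, of end joining and also named after its values were seen, had 25 ATFB, 13 ATAB, 13 ATAH and 4 ATAS reads (0.209, 0.103, 0.107 and 0.0329 RPKM) and was called lower in ATAS at -2.67 (-4.65 to -1.14).

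Among members with cell division cycle in the name but another role, CDC42, a small GTPase of cell shape, had 7461 ATFB, 7240 ATAB, 5328 ATAH and 5656 ATAS reads (234, 215, 164 and 174 RPKM) and was not called. CDC37, a cochaperone of kinases, had 1442 ATFB, 3184 ATAB, 3069 ATAH and 2916 ATAS reads (57.9, 121, 121 and 115 RPKM). It was called higher in ATAB and ATAH, and ACTB scaling removed both calls and each other scaling removed that in ATAH. CDC40, a splicing factor, had 754 ATFB, 332 ATAB, 420 ATAH and 456 ATAS reads (13.9, 5.796, 7.59 and 8.26 RPKM) and was called lower in ATAB, and under DESeq2 factors and ACTB also in ATAH. CDC73, of the PAF complex of transcription, had 297 ATFB, 377 ATAB, 477 ATAH and 624 ATAS reads (8.52, 10.2, 13.4 and 17.6 RPKM) and was called higher in ATAS under library totals alone.

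The remaining 20 members fell under none of these roles, and some were reached by their letters only. SEPTIN7, a septin filed under the old name CDC10, had 8572 ATFB, 3516 ATAB, 4083 ATAH and 3966 ATAS reads (218, 84.6, 102 and 99.1 RPKM). Each adult library was called lower, at -1.37 (-1.42 to -1.31), -1.100 (-1.15 to -1.05) and -1.14 (-1.19 to -1.08). PTGIS, prostacyclin synthase, had 4056 ATFB, 1041 ATAB, 1153 ATAH and 1889 ATAS reads (119.9, 29.1, 33.4 and 54.8 RPKM). HMOX1, inducible heme oxygenase, had 3357 ATFB, 1119 ATAB, 1021 ATAH and 1092 ATAS reads (138, 43.5, 41.1 and 44.04 RPKM). CACYBP, which binds calcyclin, had 1853 ATFB, 841 ATAB, 943 ATAH and 792 ATAS reads (98.3, 42.2, 49.02 and 41.3 RPKM). All 3 entered by their letters alone and were called lower in every adult library, at -2.04, -1.67 and -1.22 in ATAB. HMOX2, constitutive heme oxygenase, had 490 ATFB, 1123 ATAB, 1021 ATAH and 891 ATAS reads (17.95, 38.9, 36.6 and 32.05 RPKM) and was called higher in ATAB and ATAH, the former not under ACTB and the latter under no other scaling. RUNX1T1, a transcriptional corepressor, had 226 ATFB, 44 ATAB, 63 ATAH and 98 ATAS reads (7.69, 1.42, 2.101 and 3.28 RPKM), with lower calls in every adult library. CCAR1, a regulator of apoptosis, had 2229 ATFB, 1147 ATAB, 1272 ATAH and 1375 ATAS reads (36.5, 17.7, 20.4 and 22.1 RPKM) and was called lower in ATAB, though not under TMM or DESeq2 factors. CINP, which binds CDK2, had 1689 ATFB, 977 ATAB, 806 ATAH and 806 ATAS reads (116, 63.5, 54.2 and 54.4 RPKM). NUCKS1, a CDK substrate, had 2383 ATFB, 1283 ATAB, 1495 ATAH and 1144 ATAS reads (84.9, 43.2, 52.2 and 40.03 RPKM). CINP was called lower in ATAH and ATAS and NUCKS1 in ATAS, and ACTB scaling added both in ATAB. SCAPER, which binds cyclin A, had 146 ATFB, 74 ATAB, 107 ATAH and 118 ATAS reads (5.89, 2.83, 4.23 and 4.68 RPKM). PROCA1, which binds cyclin A1, had 130 ATFB, 68 ATAB, 128 ATAH and 137 ATAS reads (4.61, 2.28, 4.44 and 4.77 RPKM). Both were called lower in ATAB alone against ATFB, and under neither TMM nor DESeq2 factors. FZR1, the other activator of the APC/C, had 140 ATFB, 238 ATAB, 233 ATAH and 317 ATAS reads (4.89, 7.87, 7.98 and 10.9 RPKM) and was called higher in ATAS, opposite to CDC20, though not under DESeq2 factors or ACTB. LOC100337486, described as similar to kinesin KIF26A, had 154 ATFB, 188 ATAB, 329 ATAH and 328 ATAS reads (2.47, 2.85, 5.17 and 5.16 RPKM), and its calls as higher in ATAH and ATAS were lost under each other scaling. The called members not yet described had under 50 reads in every library and were named after their values were seen. CENPP, a centromere protein, had 47 ATFB, 22 ATAB, 11 ATAH and 14 ATAS reads (2.66, 1.18, 0.609 and 0.777 RPKM) and was called lower than in ATFB in ATAH at -2.12 (-3.22 to -1.16) and in ATAS at -1.77 (-2.75 to -0.89). CDCA5 (sororin), which holds sister chromatids together, had 24 ATFB, 8 ATAB, 9 ATAH and 5 ATAS reads (0.94997, 0.2995, 0.349 and 0.194 RPKM) and was called lower in ATAS at -2.29 (-4.04 to -0.87). CCNB1IP1, which acts in meiotic recombination, had 8 ATFB, 29 ATAB, 34 ATAH and 26 ATAS reads (0.297, 1.02, 1.24 and 0.947 RPKM) and was called higher in ATAH at 2.06 (0.92 to 3.38), though not under ACTB, and CDKL4 had 0 ATFB, 15 ATAB, 8 ATAH and 3 ATAS reads (0, 0.764, 0.422 and 0.159 RPKM) and was called higher in ATAB. Of all members, 71 were called in none of the 6 comparisons, of which 12 were called under at least 1 other scaling.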

How the data were processed

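Subcutaneous fat of 4 groups of cattle was sequenced as 1 pooled library each. Per the paper, the authors removed adaptor and low-quality reads from Illumina reads and aligned the rest with SOAPaligner to the masked bosTau7 genome, first without mismatches and then with fewer than 3, and CASAVA is named in the submitters' processing notes. The deposited files hold counts of uniquely matched reads per UniGene cluster, RPKM per cluster (scaled by the authors to the length of the cluster and the counted reads of the library), and the percent of each cluster covered by reads, also deposited by the authors. Unique matching can take reads away from clusters that share sequence with a paralog, and these libraries cannot be re-aligned from counts. Versions of these read-processing tools were not given in the sources used here.

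Groups were taken from the labels. For each pair of libraries, the split of a cluster's reads was set against the split of all counted reads with a two-sided exact binomial test. P-values were adjusted by Benjamini-Hochberg over all clusters with at least 1 read in the pair, and a call needed both an FDR no higher than 0.001 and a log2 ratio of at least 1 in size. A count of 0 reads satisfied the ratio, and folds against 0 used a floor of 3 reads per library. Intervals of ratios are 95% Clopper-Pearson intervals and those of levels are exact Poisson intervals, and both cover counting error only. The fetal library was compared with the 3 adult libraries by edgeR 4.0.16 (filterByExpr, TMM, quasi-likelihood test, FDR of 0.05 or less) in R 4.3.3, where the lone fetal library was assumed to vary like the adults. This measures only the spread between these 3 pools. Its FDR limit of 0.05 was chosen after no cluster had passed the limit of 0.001 used for pairs of libraries. Alternatives were TMM factors, size factors of DESeq2 1.42.0, ACTB as the scaling gene, a minimum of 10 reads, added reads of clusters with the same symbol, edgeR's exact test with an assumed coefficient of variation, the proliferation roles alone and, for the adults, other tests, no filter and leaving out each library. Scripts were tested on simulated data. Python 3.11.15 with scipy 1.17.1 was used.

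The members, role lists and other lists were chosen with earlier results of these data known. Genes described in full were members called in at least 1 of the 6 comparisons with at least 50 reads in 1 library, and at least the 2 members with the most reads of each role, with exceptions said to be named after their values were seen. Symbols came from the descriptions and from RefSeq (assembly ARS-UCD2.0), whose coordinates were not used. Motifs were read from the coding part of the deposited cluster sequences, with positions in the cluster and not in a genome. Genome, promoter and protein sequences were not used here. A gene of the wider cell cycle list that the rule on reads would name is not reported here.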

Additional observations from a re-analysis of the deposited data

Results flagged for a closer look

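In 5 members the adult libraries lay on opposite sides of ATFB, by at least 0.5 on the log2 scale on each side, with both 95% intervals away from 0 and a call between those adult libraries. ATFB cancels from the difference between such ratios, which is then the ratio of one adult library to the other. That ratio was called at 1.37 for CDKN1A, -1.81 for CDKN1C, -1.96 for MKI67 and 1.196 for CCNL1 (ATAH over ATAB), and at 1.41 for CDK3 (ATAS over ATAB), by a test of libraries with no replicate. The call of CCNL1 in ATAH over ATAB was lost under TMM factors (0.92) and DESeq2 size factors (0.91). The limit of 0.5 also depended on the scaling, since in ATAB CDKN1A came to -0.38 and CCNL1 to -0.36 under TMM factors and to -0.42 and -0.39 under DESeq2 factors, and under ACTB CCNL1 in ATAH came to 0.39 and CDK3 in ATAS to 0.46. CDKN1C and MKI67 stayed past it under all 3. CDKN1A, the p21 inhibitor, was at -0.56 in ATAB, 0.81 in ATAH and 1.07 in ATAS. CDKN1C, the p57 inhibitor, was at 0.96 in ATAB and -0.85 in ATAH. MKI67 was at 1.29 in ATAB and -0.67 in ATAH. CCNL1, a cyclin of splicing, was at -0.53 in ATAB, 0.66 in ATAH and 0.89 in ATAS. CDK3 was at -0.70 in ATAB and 0.71 in ATAS. All 5 had ATAB on one side and ATAH or ATAS on the other.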

How the results depend on the processing

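Under TMM factors, ATAB against ATFB gave 18 lower members, ATAH against ATAB 1 higher member, and ATAS against ATAB 22 lower and 4 higher, and DESeq2 size factors gave 1, 22 and 4 for the last 3. With ACTB as the scaling gene, 11 members were higher in ATAB and 12 in ATAH than in ATFB. With a biological coefficient of variation of 0.4, each adult library had 0 lower members and 1 higher member than ATFB, and 0 were called in either direction between adults. In the proliferation roles alone, 14 were lower in ATAB than in ATFB and 5, 7 and 6 were higher in ATAB, ATAH and ATAS, with 2 and 4 higher than ATAB in ATAH and ATAS. In the comparison of ATFB with the 3 adult libraries, edgeR's likelihood ratio test gave 29 lower, and leaving out each adult library in turn gave 3 to 46 lower and 5 to 16 higher. Of 232 called ratios, 208 stayed called with ACTB, 200 with TMM and 200 with DESeq2 factors, and 3 with the assumed variation. All 232 stayed called with a minimum of 10 reads or with symbols added, which had little power to remove a call. That minimum drops only clusters with too few reads to be called, and among members each symbol had 1 cluster. No ratio changed sign, and none could. A call needs a log2 ratio of at least 1 in size, and the largest change by scaling was 0.30 in size. Calls were also gained, 37 with ACTB, 21 with TMM and 27 with DESeq2 factors. The cause of these shifts was not tested. No paired analysis was possible because each group had 1 library. Depth limits members with few reads: 7 members stayed under 10 reads in every library, and calls of members under 50 reads have wide intervals. The spread between animals cannot be read from pooled libraries.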
